A study of Mus musculus with 42 samples.

Results

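The genes examined here are 10 genes whose expression sets heart chambers apart or marks cardiac stress: Nppa, Nppb, Myh6, Myh7, Myl2, Myl3, Myl4, Myl7, Sln and Tnnt2. They were chosen by symbol, and all 10 were found among the 26653 genes listed per tissue. RNA from heart and 6 other sources had been sequenced in 42 samples, 22 from wild-type and 20 from Tug1-/- male mice. Heart had 3 wild-type and 3 Tug1-/- samples, as did eyes, spleen, liver and mouse embryonic fibroblasts (MEFs, cultured to passage 2). Testes had 4 and 3, and prostate 3 and 2. Both genotypes came from the Tug1_tm1.1Vlcg strain on a C57BL/6J background. Wild-type mice carried 2 intact Tug1 alleles without lacZ, and Tug1-/- mice carried a lacZ reporter replacing Tug1 on both alleles. The deletion was present in every cell of the animal and not in heart muscle alone, and the labels do not give the age of the mice.

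Each gene had 1 value per genotype and tissue in FPKM, fragments scaled by transcript length and by the number of mapped fragments, in which the authors had combined the replicates. The table gives neither values of single samples nor sequencing depth, and the authors' own test columns were not used. A difference below is therefore the size of a ratio between 2 numbers, and whether it exceeds the spread between mice was not tested here. Changes are given as log2 of Tug1-/- over wild-type after 0.1 FPKM was added to both values. A gene was counted as past the limit when this change exceeded 1.5-fold (0.585 on the log2 scale) and the mean of the 2 values was at least 1 FPKM. RNA came from whole tissue or, for MEFs, from cultured cells, so fewer cells of a type and less RNA per cell cannot be told apart.

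Atrial and ventricular cardiomyocytes build their contractile filaments from partly different proteins. Atrial cells use the light chains encoded by Myl4 and Myl7 and restrain the calcium pump with sarcolipin (Sln), whereas ventricular cells use the light chains encoded by Myl2 and Myl3. The adult mouse heart runs on the fast alpha myosin heavy chain (Myh6), and the slower beta chain (Myh7) is the fetal ventricular form, whose return, together with that of the natriuretic peptides Nppa and Nppb, is the textbook sign of an overloaded heart. Tnnt2 encodes cardiac troponin T, which anchors the calcium-sensing troponin complex to the thin filament in all chambers.

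The targeted gene went with the labels in all 7 tissues. Tug1 lay between 11.2 and 27.7 FPKM in wild-type tissues and between 0.00753 and 0.402 FPKM in Tug1-/- tissues. The heart label was borne out by its 5 defining markers (Actc1, Mybpc3, Nkx2-5, Ryr2 and Tnni3), each of which was highest in heart among the 7 tissues in both genotypes. The heart values also held transcripts of other tissues that differed between genotypes. Of 18 skeletal muscle markers, 14 reached the minimum in heart and 10 of these were past the limit and lower in Tug1-/-, including Tnnc2 (25.2 against 0.214 FPKM) and Tnnt3 (30.3 against 0.786 FPKM). The airway gene Scgb1a1 was at 21.0 FPKM in wild-type against 0.113 FPKM in Tug1-/- heart, while the 4 surfactant genes of the lung list were at 0.230 FPKM or less in both. Of 6 adipocyte markers, 4 were past the limit and lower in Tug1-/-. Markers of the 6 other tissues were highest in their own tissue in both genotypes, except Serpina1a for liver and Tgm4 for prostate.

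In heart, both natriuretic peptides were higher in Tug1-/- than in wild-type, by 0.36 each on the log2 scale, and both myosin heavy chains were lower, Myh6 by -0.41 and Myh7 by -0.56. The atrial light chains Myl4 and Myl7 were higher by 0.26 and 0.23. Myl2, Myl3, Sln and Tnnt2 lay between 0.01 and 0.06, and were below 0 (-0.07 to -0.02) when values were scaled to the summed FPKM, while the other 6 genes kept their sign. None of the 10 was past the 1.5-fold limit in either direction (0 higher and 0 lower of 10), where 0.874% of the 12695 heart genes with a mean of at least 1 FPKM were past it and higher and 1.44% past it and lower. At a lower limit of 0.32 on the log2 scale, 2 genes were higher (Nppa and Nppb) and 2 lower (Myh6 and Myh7), against 3.54% and 4.79% of all heart genes. Low values scatter more than high ones, and 9 of the 10 genes were above 100 FPKM. Among the 778 heart genes with a mean of at least 100 FPKM, 3.34% were past this lower limit and higher and 1.41% past it and lower. Nppa and Nppb were among those higher and Myh6 among those lower, while Myh7, with a mean of 26.9 FPKM, was not in this set.

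**Figure D1:**
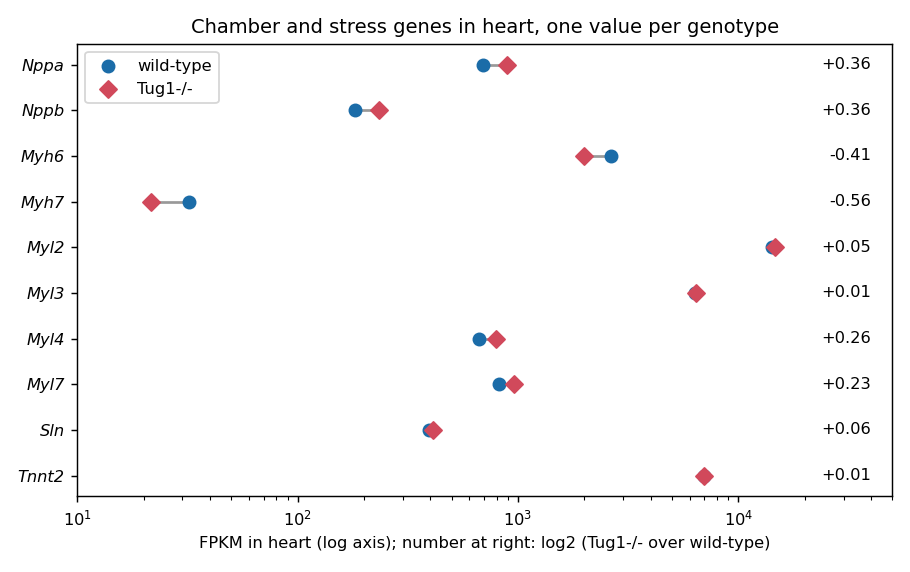
FPKM of the 10 genes in heart on a log axis, with circles for wild-type, diamonds for Tug1-/- and the log2 change at the right; each symbol is 1 combined value, so there are no error bars. Nppa and Nppb lie to the right in Tug1-/- (0.36 each), Myh6 and Myh7 to the left (-0.41 and -0.56), and the symbols of Myl2, Myl3 and Tnnt2 nearly coincide.

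The genes with the largest changes form 2 neighbouring pairs in the genome. Nppb (chr4:147985788-147987205) and Nppa (chr4:148000722-148002079) lie on the plus strand 13517 bases apart, and Myh6 (chr14:54941921-54966927) and Myh7 (chr14:54970684-54994626) lie on the minus strand 3757 bases apart (GRCm38, the build named mm10 in the submitters' notes, with gene limits from GENCODE vM21). Members of a pair had changes of one sign and the pairs had opposite signs, so the promoters of these 4 genes are shown. Each line gives 250 bases before and 50 bases after the RefSeq start of the gene on GRCm38.p6, 5′ to 3′ on the strand of the gene: chr4:147985650-147985949 (plus strand) for Nppb, chr4:148000472-148000771 (plus) for Nppa, chr14:54994577-54994876 (minus) for Myh7 and chr14:54966558-54966857 (minus) for Myh6. Capitals mark 3 motifs found on either strand, of which none overlapped another. The first, bound by GATA factors such as Gata4, was searched in 4 spellings: AGATAA for the first, then AGATAG for the second, TGATAA for the next and finally TGATAG. The M-CAT motif, bound by TEAD factors, was searched with the spelling CATTCC. The TATA motif, which binds the protein that starts assembly of the transcription machinery, was searched with the spelling TATAAA in the same windows.
Nppb: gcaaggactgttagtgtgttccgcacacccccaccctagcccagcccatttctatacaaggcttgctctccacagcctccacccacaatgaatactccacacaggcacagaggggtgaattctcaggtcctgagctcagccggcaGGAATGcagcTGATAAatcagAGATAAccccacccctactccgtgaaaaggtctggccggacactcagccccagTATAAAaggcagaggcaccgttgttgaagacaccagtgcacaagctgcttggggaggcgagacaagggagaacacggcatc
Nppa: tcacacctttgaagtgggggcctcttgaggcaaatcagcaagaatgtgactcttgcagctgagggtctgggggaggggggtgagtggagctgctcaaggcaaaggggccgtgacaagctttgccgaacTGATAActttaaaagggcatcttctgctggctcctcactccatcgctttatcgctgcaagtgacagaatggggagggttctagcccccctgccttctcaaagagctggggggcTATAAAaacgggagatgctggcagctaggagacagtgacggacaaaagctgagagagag
Myh7: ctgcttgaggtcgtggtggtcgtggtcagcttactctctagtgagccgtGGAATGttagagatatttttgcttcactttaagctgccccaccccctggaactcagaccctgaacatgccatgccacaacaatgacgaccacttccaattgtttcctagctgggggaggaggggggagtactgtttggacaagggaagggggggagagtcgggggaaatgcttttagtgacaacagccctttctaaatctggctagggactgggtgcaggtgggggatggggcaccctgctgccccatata
Myh6: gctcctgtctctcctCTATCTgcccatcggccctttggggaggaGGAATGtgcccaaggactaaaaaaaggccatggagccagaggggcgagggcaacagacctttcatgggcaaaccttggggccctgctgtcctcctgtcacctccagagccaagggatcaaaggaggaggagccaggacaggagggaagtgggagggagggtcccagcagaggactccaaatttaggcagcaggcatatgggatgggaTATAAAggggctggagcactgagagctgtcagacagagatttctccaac

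Both peptide promoters held a GATA and a TATA motif. The TGATAA of Nppa lay at -122 to -117 from the start, and those of Nppb at -95 to -90 (TGATAA) and -84 to -79 (AGATAA), with an M-CAT motif (GGAATG, its reverse complement) at -105 to -100. The TATA motif lay at -9 to -4 in Nppa and -31 to -26 in Nppb. Both myosin promoters held an M-CAT motif, again as GGAATG, at -206 to -201 in Myh6 and -201 to -196 in Myh7. Myh6 also held a GATA motif (CTATCT, a reverse complement) at -235 to -230 and a TATA motif at 1 to 6, so these motifs were not particular to the peptide pair. Myh7 held neither in the window shown. Of 2 promoters listed for Myh7, only the 1 at the GENCODE start of the gene is shown, and the absence applies to that window. Among all 32851 promoters of this length, 29.8% held a GATA motif, 14.7% an M-CAT motif and 13.6% a TATA motif. The CArG box, which serum response factor binds and which 1.63% of promoters held in the spelling searched, was not found in that spelling in the 4. Sequences close to that spelling were not counted, so the absence covers the searched spelling only. The RefSeq start used for Myh6 lies 320 bases and that for Nppb 112 bases inside the GENCODE limit of the gene. A promoter was found for 9 of the 10 genes. Outside the 4 shown, Myl3, Myl7 and Tnnt2 each held GATA and M-CAT motifs, with heart changes of 0.01, 0.23 and 0.01. Myl2 held a TATA motif, Myl3 and Myl7 a CArG box, and Myl4 none. The motifs were thus not particular to the genes with the largest changes. The starts used for Myl2 and Myl3 lie 7762 and 21817 bases from the GENCODE start.

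Nppa, which encodes atrial natriuretic peptide, was at 691 FPKM in wild-type heart against 888 FPKM in Tug1-/- heart, a 1.28-fold difference. Nppb, which encodes B-type natriuretic peptide, was at 182 FPKM and 234 FPKM, also 1.28-fold. The ratio of Nppa to Nppb was 3.80 in both genotypes, so the pair differed between genotypes by the same proportion. Among the 778 heart genes above 100 FPKM, 2.57% had a larger change upward than Nppa and 2.83% a larger one than Nppb. A noncoding gene on the opposite strand, Gm13054 (chr4:148001091-148004014), overlaps Nppa. It was listed at 681 FPKM in wild-type against 873 FPKM in Tug1-/- heart, with a log2 change of 0.36. The library kit does not keep strand, so reads of Nppa and of Gm13054 cannot be told apart where the 2 genes overlap.

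Myh6, the alpha myosin heavy chain, was at 2644 FPKM in wild-type heart, where it ranked 20 of all genes, against 1985 FPKM in Tug1-/- heart, where it ranked 37. This 1.33-fold difference was further down than that of all but 0.900% of the 778 heart genes above 100 FPKM. Myh7, the beta chain, was at 32.1 FPKM in wild-type against 21.7 FPKM in Tug1-/- heart, 1.47-fold lower and just inside the 1.5-fold limit. When values were divided by the summed FPKM of the library, which was 1.06 times larger in Tug1-/- heart, the change of Myh7 became -0.64. When the median change of all heart genes (0.03) was subtracted it became -0.59, and in both cases Myh7 was past the limit, so that 1 gene was then lower. The summed heavy chains went from 2676 to 2006 FPKM. Myh7 made up 1.20% of Myh6 plus Myh7 in wild-type and 1.08% in Tug1-/- heart, so the proportion of the fetal isoform was nearly the same in both.

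Reads of the myosin heavy chains are hard to place. Myh6 and Myh7 are near-identical copies in much of their coding sequence, and how the authors' counting split shared reads between them is not given in the sources used here, so each of the values is uncertain in that respect. Myh7 is also the chain of slow skeletal fibres, and skeletal muscle transcripts differed between the heart values in the same direction. Of the slow-fibre markers, Tnnt1 was at 19.2 and 17.7 FPKM and Tnni1 at 1.26 and 0.849 FPKM in wild-type and Tug1-/-, while the fast-fibre chains Myh1, Myh2 and Myh4 were at 2.03 to 3.40 FPKM in wild-type and 0.00442 to 0.0125 FPKM in Tug1-/-. The 18 markers summed to 1304 FPKM in wild-type against 1332 FPKM in Tug1-/-, of which Ckm, a gene the heart also expresses, gave 1144 and 1294 FPKM. The part of skeletal muscle transcripts in the Myh7 difference was not tested.

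Gene models annotated on the strand opposite Myh7 had changes of the other sign. Mhrt (chr14:54968678-54974349, listed in the table under the older name D830015G02Rik) was at 22.5 FPKM in wild-type against 24.5 FPKM in Tug1-/- heart, a log2 change of 0.12. Gm17428 (chr14:54976933-54977025), a gene model of only 93 bases inside Myh7 on the opposite strand, was at 184 FPKM in wild-type against 341 FPKM in Tug1-/- heart, a log2 change of 0.89. Gm17428 was listed at 0 in both genotypes in the 6 other tissues. FPKM of a model this short is divided by very little length. Mhrt and Gm17428 both overlap Myh7, and without strand their reads cannot be told apart from those of Myh7 in the shared stretches, so neither value is a measure of opposite-strand RNA alone. Myh7b, a more distant heavy chain on another chromosome, was at 12.8 and 11.3 FPKM.

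**Figure D2:**
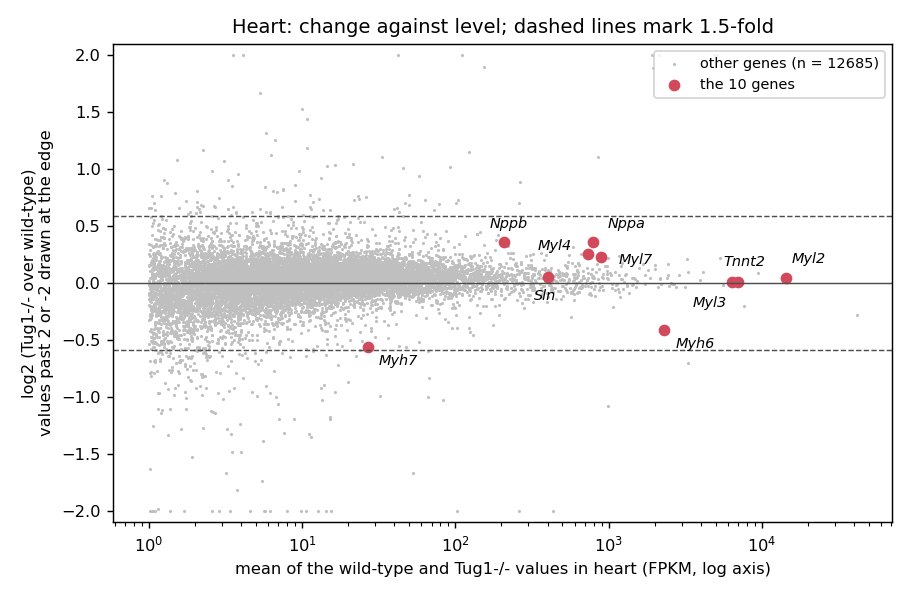
Log2 change (Tug1-/- over wild-type) against the mean of both values in FPKM (log axis) in heart, with the 10 genes in red, the 12685 other genes with a mean of at least 1 FPKM in grey and dashed lines at 1.5-fold. Grey points spread less at high levels, where Nppa (0.36) and Myh6 (-0.41) stand at the edges of the cloud and Myl2, Myl3 and Tnnt2 lie near 0.

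The ventricular light chains hardly differed between genotypes. Myl2, the regulatory light chain of the ventricle, was at 14249 FPKM in wild-type against 14716 FPKM in Tug1-/- heart and ranked 3 of all genes in both. Myl3, the essential light chain, was at 6380 and 6434 FPKM. Their log2 changes of 0.05 and 0.01 lay between the lower and upper quartile (-0.02 and 0.10) of the 778 heart genes above 100 FPKM. Myl2 alone took 2.34% of the summed FPKM of wild-type heart and 2.29% of that of Tug1-/- heart.

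The atrial light chains were higher in Tug1-/- heart by a smaller margin than the peptides. Myl4, the atrial essential light chain, was at 668 FPKM in wild-type against 798 FPKM in Tug1-/-, 1.19-fold higher. Myl7, the atrial regulatory light chain, was at 818 and 960 FPKM, 1.17-fold higher. Sln, the small membrane protein that slows the calcium pump in atrial cells, was at 394 and 410 FPKM, a log2 change of 0.06. Among the 778 genes above 100 FPKM, 4.63% had a larger change upward than Myl4, 6.30% than Myl7 and 44.3% than Sln. The median of these 3 atrial changes exceeded the median of the 2 ventricular ones by 0.20 on the log2 scale. The ratio of Myl2 to Myl7 was 17.4 in wild-type and 15.3 in Tug1-/-, and that of Myl3 to Myl4 was 9.55 and 8.06. How much atrial tissue each heart sample held was not recorded in the labels, and its part in these differences was not tested.

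Tnnt2 was at 6978 FPKM in wild-type against 7008 FPKM in Tug1-/- heart, the smallest change of the 10 genes (0.01). Troponin T is shared by atria and ventricles, and its level ranked 6 in wild-type and 8 in Tug1-/-. The 10 genes together gave 5.42% of the summed FPKM of wild-type heart and 5.20% of that of Tug1-/- heart.

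Other genes of the heart, listed by role, give these values a setting. Over all 12695 heart genes with a mean of at least 1 FPKM the median change was 0.03 and 58.6% had a change above 0. These figures are for unscaled values. Scaling to the summed FPKM lowered all heart changes by about 0.08, and no all-gene figure is given on that scale. Of 72 genes in 7 lists that reached that level, 3 were past the limit and higher and 1 past it and lower. Of 12 other atrial genes, 12 had a change above 0, with a median of 0.17. On values scaled to the summed FPKM 9 of the 12 did, with a median of 0.09, and Gja5, Kcnj5 and Nr2f2 were then below 0. Of the 12, 2 were past the limit. Kcna5, a subunit of a delayed rectifier potassium channel, was at 9.12 and 17.3 FPKM (0.92). Levels by chamber were not measured, so whether Kcna5 marks atria in these mice was not tested. Bmp10, a growth factor made in the atria, was at 35.5 and 57.7 FPKM (0.70). Pam, which encodes an abundant membrane protein of atrial granules, was at 328 and 393 FPKM (0.26).

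Of 6 other ventricular genes, 5 had a change below 0, with a median of -0.32, and all 6 did on values scaled to the summed FPKM (median -0.40). That scaling lowered all heart changes by about 0.08, so the scaled count has no all-gene share beside it. Irx5, a homeobox gene that helps to set the repolarization gradient across the ventricular wall, was past the limit at 2.91 and 1.82 FPKM (-0.65). Kcnj2, which encodes the main inward rectifier channel of the ventricle, lay just inside the limit at 12.8 and 8.51 FPKM (-0.58). Irx3 was at 6.98 and 5.19 FPKM (-0.42), and Kcnip2, a partner of the transient outward channel, was at 89.0 and 91.2 FPKM (0.04). The ventricular genes that departed most were at low levels, and whether the atrial and ventricular lists differ was not tested.

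**Figure D3:**
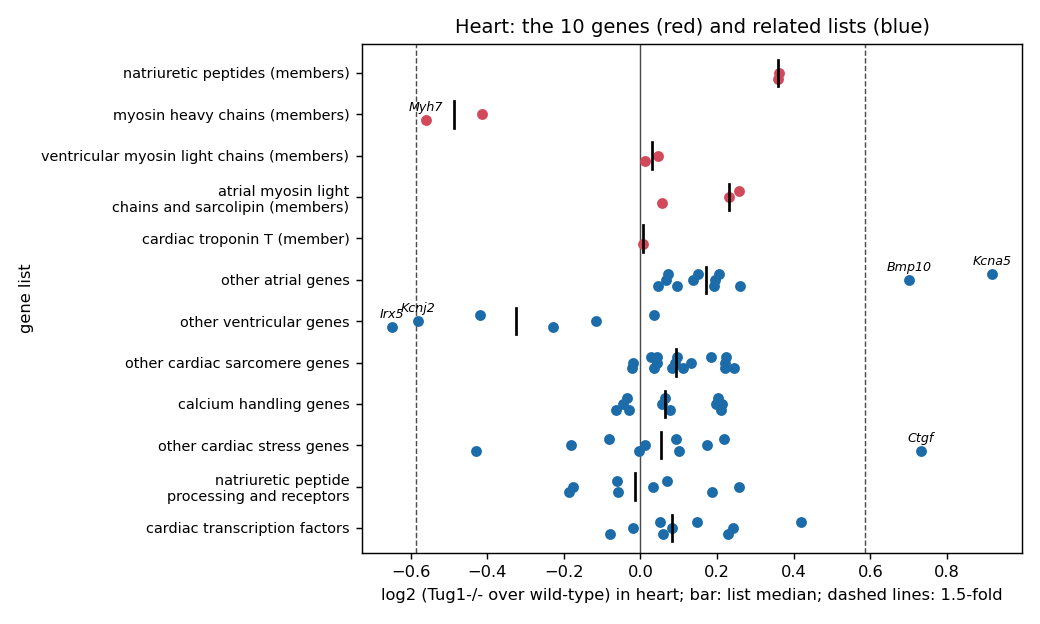
Log2 change (Tug1-/- over wild-type) in heart of the 10 genes by role (red) and of genes in 7 related lists (blue) with a mean of at least 1 FPKM; vertical bars are list medians and dashed lines mark 1.5-fold. The 12 other atrial genes lie right of 0 (9 of 12 on values scaled to the summed FPKM) with Kcna5 (0.92) and Bmp10 (0.70) farthest, 5 of 6 other ventricular genes lie left of 0, and the sarcomere and calcium handling genes lie near 0.

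None of 16 other sarcomere genes was past the limit, and their changes ran from -0.02 to 0.24 with a median of 0.09. None of 11 calcium handling genes was past it (median 0.06, and -0.02 on values scaled to the summed FPKM). Pln, the ventricular counterpart of Sln on the calcium pump, was at 2802 and 2735 FPKM, and the ratio of Sln to Pln was 0.141 in wild-type and 0.150 in Tug1-/-. The 8 genes that process natriuretic peptides or answer them had a median of -0.01 and none past the limit. Corin, the protease that activates atrial natriuretic peptide, was at 46.4 and 52.8 FPKM (0.19), and Npr1, the receptor of both peptides, was at 11.7 and 10.3 FPKM (-0.18). Among 9 cardiac transcription factors at the minimum level none was past the limit, with Gata4 at 52.8 and 55.9 FPKM (0.08) and Hand2 at 19.3 and 25.9 FPKM (0.42).

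Other genes that mark cardiac stress did not share one direction. Of 10 at the minimum level, 6 had a change above 0 and 4 below, with a median of 0.05 (5 and 5, with a median of -0.02, on values scaled to the summed FPKM). Ctgf, a matrix-associated growth factor, was the only one past the limit, at 47.9 and 79.6 FPKM (0.73). Acta1, the skeletal alpha-actin that returns in the stressed heart, was at 142 and 106 FPKM (-0.43). It is also the main actin of skeletal muscle, whose markers were lower in Tug1-/- heart (10 of the 14 at the minimum level past the limit), and their part in the Acta1 value was not tested. Ankrd1, a stretch-responsive titin-binding protein, was at 595 and 670 FPKM (0.17). The peptides, Ctgf and Ankrd1 thus were higher in Tug1-/- heart while Myh7 and Acta1 were lower.

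Across tissues, each of the 10 genes was highest in heart in both genotypes. To set levels of different tissues beside each other, each value was divided by the summed FPKM of its tissue and genotype and multiplied by 1000000, because those sums differed between tissues. On this scale the order within wild-type heart was Myl2 (23392), Tnnt2 (11456), Myl3 (10474), Myh6 (4341), Myl7 (1344), Nppa (1135), Myl4 (1097), Sln (647), Nppb (299) and Myh7 (52.6). Whether neighbours in this order, such as Nppa and Myl4, differ beyond the spread between mice was not tested. The genes differed in how strictly they kept to heart. Myh6 exceeded its next tissue, testes, 11085-fold in wild-type, Myl3 exceeded eyes 2584-fold, Nppa exceeded MEFs 1652-fold and Myl7 exceeded liver 1178-fold. The margins were 17.8-fold for Myl4 over testes, 13.7-fold for Nppb over MEFs, 13.4-fold for Sln over eyes and 7.19-fold for Myh7 over eyes. In Tug1-/- the margin of Myh7 over eyes was 2.69-fold, with Myh7 lower in heart and higher in eyes than in wild-type. Nppa exceeded MEFs 3452-fold, Myl3 exceeded eyes 1199-fold, and Myh6 exceeded testes 7248-fold. Margins over a tissue near 0 rest on very low values.

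**Figure D4:**
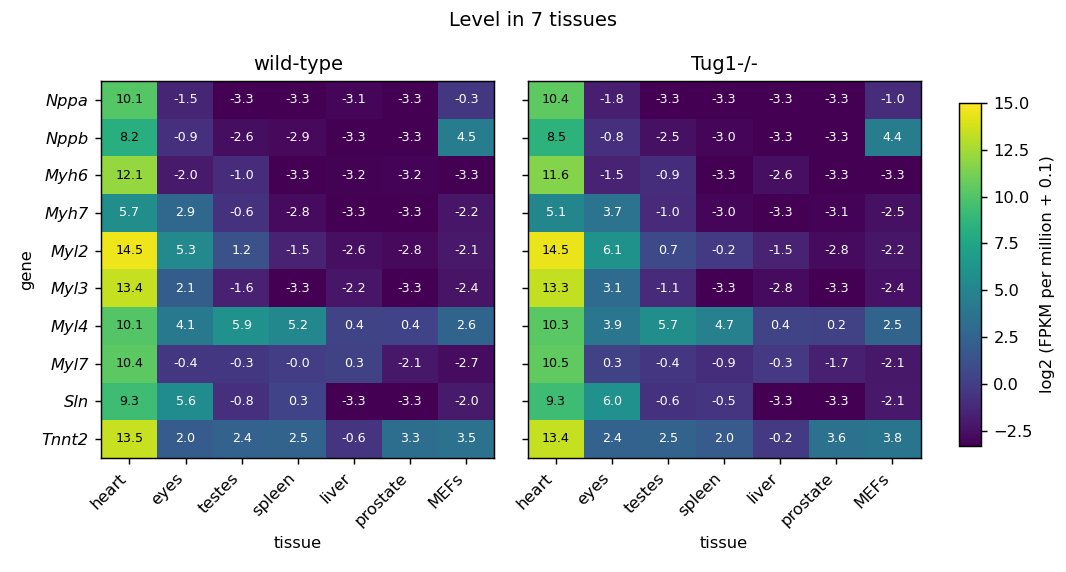
Level of each of the 10 genes (rows) in 7 tissues (columns), as log2 of FPKM per 1000000 summed FPKM plus 0.1, in wild-type (left) and Tug1-/- (right); each cell is 1 combined value. The heart column is highest in every row, and Myl4, Sln, Myl2, Nppb, Tnnt2 and Myh7 are among the genes with visible levels in at least 1 further tissue.

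In eyes, 6 of the 10 genes reached a mean of 1 FPKM. Of these, 3 were past the limit and higher in Tug1-/- and 0 lower, where 2.64% of the 14298 eye genes at that level were past it and higher and 0.867% past it and lower. Myl3 was at 1.53 FPKM in wild-type against 3.23 FPKM in Tug1-/- eyes (1.03). Myl2 was at 14.8 and 26.8 FPKM (0.85), and Myh7 was at 2.77 and 4.84 FPKM (0.79). These 3 genes also encode the slow myosin of skeletal fibres. Sln was at 18.2 and 24.0 FPKM (0.40), Tnnt2 at 1.48 and 2.06 FPKM (0.45) and Myl4 at 6.52 and 5.58 FPKM (-0.22). Nppa, Nppb and Myh6 were at 0.185 FPKM or less in eyes of both genotypes, and Myl7 was at 0.254 and 0.435 FPKM.

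The eye values held skeletal muscle transcripts in both genotypes, and these were higher in Tug1-/-. Of 18 skeletal muscle markers, 17 reached the minimum and 15 of these were past the limit and higher, with a median change of 0.79. Their summed level was 3297 FPKM in wild-type against 5836 FPKM in Tug1-/- eyes, and none was at 0. Tnnc2 was at 437 and 784 FPKM (0.84) and Atp2a1, the calcium pump of fast fibres, at 550 and 984 FPKM (0.84). The slow-fibre genes were mixed, with Tnni1 at 13.2 and 22.1 FPKM (0.74) and Tnnt1 at 37.1 and 42.8 FPKM (0.21). Adipocyte markers (92.6 and 289 FPKM in sum) and erythroid markers (184 and 538 FPKM in sum) were higher as well, with 5 of 5 genes at the minimum level past the limit in each list. The 5 defining eye markers summed to 9204 and 9333 FPKM. The part of skeletal muscle in the eye differences of Myl2, Myl3 and Myh7 was not tested.

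**Figure D5:**
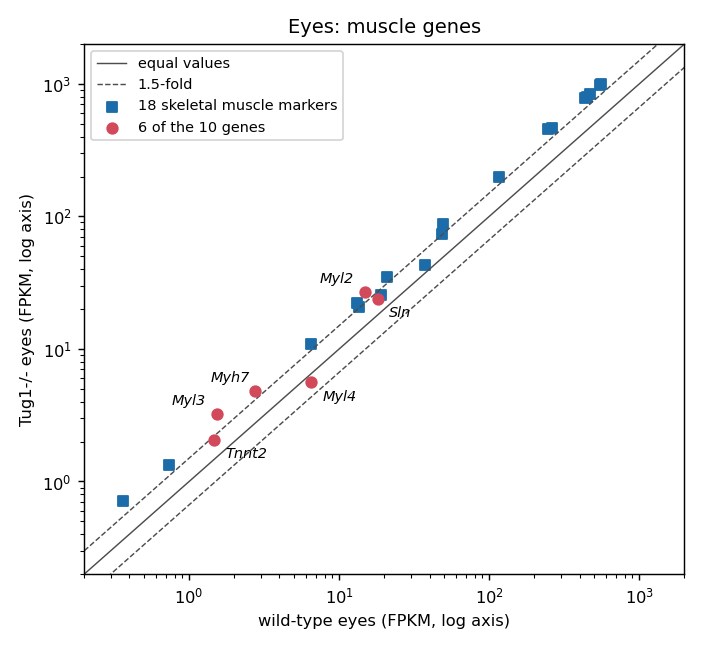
Tug1-/- against wild-type FPKM in eyes (both log axes) for 6 of the 10 genes with a mean of at least 1 FPKM (red circles) and 18 skeletal muscle markers (blue squares), with a solid line at equal values and dashed lines at 1.5-fold. Myl2, Myl3 and Myh7 lie above the upper dashed line together with most of the muscle markers, and Myl4 lies below the line of equal values.

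In testes, 3 of the 10 genes reached the minimum. Myl2 was past the limit and lower in Tug1-/- (0 higher and 1 lower of 3), where 1.17% of testes genes were past it and higher and 0.753% past it and lower. Myl2 was at 1.65 FPKM in wild-type against 1.05 FPKM in Tug1-/- testes (-0.60), close to the minimum level, and it was inside the limit on values scaled to the summed FPKM, after subtraction of the median change, or with a pseudocount of 1 FPKM. Ccdc63 (chr5:122108040-122140823), on the opposite strand and overlapping Myl2, was at 252 and 216 FPKM in testes (-0.22), and reads of the shared stretch cannot be told apart. Myl4 was at 44.8 and 35.7 FPKM (-0.33), which made testes its second tissue, and Tnnt2 was at 3.88 and 3.87 FPKM.

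Myl4 and Tnnt2 were the genes of the set found most widely. In spleen they were the 2 genes at the minimum level, and neither was past the limit, with 4.91% of spleen genes past it and higher and 1.1% past it and lower. Myl4, which is also an embryonic muscle light chain, was at 17.7 FPKM in wild-type against 12.5 FPKM in Tug1-/- spleen (-0.50). Tnnt2 was at 2.66 and 1.85 FPKM (-0.50). Erythroid markers were higher in Tug1-/- spleen, with 6 of 6 past the limit and higher and summed levels of 7827 and 14615 FPKM, and their part in the lower values was not tested. Nppa and Myl3 were listed at 0 in spleen of both genotypes.

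In MEFs, 3 genes reached the minimum and none was past the limit, with 0.975% of MEF genes past it and higher and 2.2% past it and lower. Nppb was at 11.0 FPKM in wild-type against 10.1 FPKM in Tug1-/- MEFs (-0.13), while Nppa, its neighbour, was at 0.346 and 0.193 FPKM. Tnnt2 was at 5.80 and 6.65 FPKM (0.20) and Myl4 at 2.90 and 2.77 FPKM (-0.06). MEFs were thus the only tissue outside heart among the 7 with Nppb above 1 FPKM, and its value there was slightly lower in Tug1-/-, unlike in heart.

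In prostate, Tnnt2 alone reached the minimum, at 6.02 and 6.88 FPKM (0.19), and 2.4% of prostate genes were past the limit and higher and 0.682% past it and lower. In liver, Myl4 alone reached it, at 1.40 and 1.26 FPKM (-0.14), and 2.55% of liver genes were past the limit and higher and 2.25% past it and lower. Myl7 in liver, at 1.28 FPKM in wild-type against 0.712 FPKM in Tug1-/-, had a change of -0.77 and a mean of 0.997 FPKM, just under the minimum. In prostate 4 of the 10 genes were listed at 0 in both genotypes (Nppa, Nppb, Myl3 and Sln). The authors' status for these 4 was NOTEST and not a failed estimate, and a value of 0 does not show that RNA was absent.

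The likeness of other genes to 4 of the set was measured as Pearson's r of wild-type log2 levels, scaled in the same way, over the 7 tissues, among 5980 genes with at least 10 FPKM in wild-type heart. It is a description over 7 points, 1 of which (heart) lies far above the rest. Closest to Nppa were Fgf16, a cardiac growth factor (r = 0.988), Atp5o (0.983) and the overlapping Gm13054 (0.979). Closest to Myl7 were Hadhb (0.982), Mybpc3 (0.973) and D830015G02Rik, the Mhrt of current annotation (0.968). Closest to Myl2 were Ppp1r14c (0.996), Ucp1 (0.996) and Tecrl (0.992), and closest to Myh6 were D830015G02Rik (0.989), Gm17428 (0.988) and Scgb1a1 (0.985). Fgf16 was at 14.7 and 11.9 FPKM (-0.31) beside the higher Nppa, and Ucp1 was at 18.1 and 8.83 FPKM (-1.03) beside the nearly equal Myl2. Ucp1, the uncoupling protein of brown fat, and Scgb1a1 belong to the fat and airway marker lists described above.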

How the data were processed

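Polyadenylated RNA had been sequenced with the TruSeq RNA Sample Preparation Kit v2, which does not keep strand. The submitters' processing notes name CASAVA 1.8.2, TopHat2, Cuffdiff and the build mm10. The authors made the deposited FPKM values by combining the replicates into 1 value per gene, tissue and genotype; the unit follows from the Cuffdiff layout and is not named in the header. The table also holds the authors' log2 fold change, test statistic, p-value, q-value and significance call for each comparison, and none of these was used. Values of 1 further tissue, for which no samples are described here, were not used.

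Changes were log2 ratios of Tug1-/- over wild-type with a pseudocount of 0.1 FPKM, counted as past the limit over 1.5-fold where the mean was at least 1 FPKM. Because values of single samples are not in this table and the authors' test columns were left aside, no test, standard deviation or interval is given, and depth per sample is unknown. Levels between tissues were compared after scaling each to 1000000 summed FPKM. Gene lists, markers and the 10 genes were chosen with earlier results of these data known. All 10 genes were named in 7 tissues, and from each list the 2 largest changes in each direction past the limit, with a few further genes chosen after their values were seen. Likeness used the 3 highest Pearson correlations per gene. Marker lists held 18 skeletal muscle, 6 adipocyte, 8 erythroid, 5 lung, 4 smooth muscle, 5 endothelial, 6 fibroblast and 5 macrophage genes. In heart, 1 of 4 smooth muscle markers, 0 of 5 endothelial, 0 of 6 fibroblast and 0 of 4 measured macrophage markers were past the limit, and erythroid markers were split, with 2 higher and 2 lower. Overlapping genes were matched by Ensembl ID to GENCODE vM21 (GRCm38), and promoters are RefSeq sequences on GRCm38.p6. Calculations used Python 3, numpy and pandas. The fold calls were run on heart values with planted changes larger than the limit and no added noise. This checks the code and not how reliable the calls on these data are. Alternatives were other pseudocounts, values scaled to the summed FPKM, median centring, other fold limits, other minimum levels and omission of incomplete estimates.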

Additional observations from a re-analysis of the deposited data

How the results depend on the processing

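In heart, the change of each of the 10 genes moved by less than 0.1 on the log2 scale under other pseudocounts, values scaled to the summed FPKM and median centring, in all 40 values computed, although Myl2, Myl3, Sln and Tnnt2, all close to 0, were below 0 on values scaled to the summed FPKM, and Myl3 and Tnnt2 with median centring. The atrial-minus-ventricular difference was 0.20 under all 4. Scaling and centring lowered all heart changes by about 0.08 and 0.03, so they could not alter this difference or move any value by 0.1. The other pseudocounts are small beside the heart values of these genes. The 40 values and this difference thus had little room to move, and their stability says nothing about the spread between mice. In the other tissues 62 of 240 such values moved by 0.1 or more, and no change past the limit reversed. Of the counts of the 10 genes past the limit in heart, the number higher (0) became 2 with a limit of 0.32 on the log2 scale, and the number lower (0) became 1 on values scaled to the summed FPKM and with median centring (Myh7) and 2 with a limit of 0.32 on the log2 scale. In the 6 other tissues, the number higher (3) became 1 with a limit of 2-fold, 5 with the limit of 0.32, 7 with no minimum level and 1 with a mean of at least 10 FPKM. The number lower there (1) became 0 with a pseudocount of 1, values scaled to the summed FPKM, median centring, a limit of 2-fold or a mean of at least 10 FPKM, 4 with the limit of 0.32 and 6 with no minimum level. Of the heart lists, the number lower (1) became 0 with a pseudocount of 1 or a mean of at least 10 FPKM and 2 on values scaled to the summed FPKM and with median centring (Irx5 and Kcnj2). The Myh7 share was 1.19% in wild-type and 1.08% in Tug1-/- with Myh7b added to the sum. Counts under another limit or minimum level follow from that setting. The same holds for scaling and centring, which shift all changes of a tissue nearly alike. A pseudocount of 1 shrinks changes at low levels. In heart, Myh7 (-0.56) and Kcnj2 (-0.58) lay close to the limit before the shift. No paired analysis was possible because the table holds 1 combined value per genotype, and for the same reason leaving out single replicates was not run. Depth limits the low values most, and it cannot be read from this table.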
